A study of Mus musculus with 132 samples.

Results

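The Ikaros zinc finger family comprised the 5 genes Ikzf1, Ikzf2, Ikzf3, Ikzf4 and Ikzf5, found by their symbols among the 25146 genes of the count table. Their poly(A)-minus RNA, which lacks most polyadenylated messenger RNA and holds nascent transcripts, was followed in 23 libraries of E14-TG2a cells, a male 129/Ola mouse embryonic stem cell line differentiated in culture towards blood. The stages were undifferentiated mESCs at day 0, Flk1+ mesoderm at day 4, and CD41+ hematopoietic progenitor cells (HPCs) at day 7. By the study's methods, undifferentiated cells were kept in medium with serum and Leukemia Inhibitory Factor. Differentiation was in serum-free medium with BMP4, to which bFGF and Activin A were added later. Sorted Flk1+ cells were then cultured with SCF and VEGF. Wild-type cells were compared with clones in which CRISPR-Cas9 had removed, from both alleles, the CTCF site beside the P1 promoter (P1-CTCF-KO) or the P2 promoter (P2-CTCF-KO) of Runx1, the master regulator of blood emergence. The undifferentiated group held 2 technical replicates of 1 wild-type culture. The mesoderm groups held 3 libraries each, with B9.3, C6.1 and C8.1 as wild-type, E7.1, E7.2 and E9.1 as P1-CTCF-KO, and D10.1, D2.1 and E9.1 as P2-CTCF-KO clones. The HPC groups held 4 wild-type, 3 P1-CTCF-KO and 5 P2-CTCF-KO libraries of the same clones, and the names B9.3-2, D10.1-2 and D2.1-2 mark further libraries of a clone. The clone name E9.1 occurs in both knockouts. Each differentiated group is thus a set of clones of 1 cell line grown in culture and selected on a surface marker, not tissue of an animal.

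The Ikaros zinc finger proteins bind DNA through zinc fingers near one end and pair with each other through zinc fingers at the other end. They are best known for setting lymphocyte fate, largely by bringing the NuRD and Sin3 histone deacetylase complexes and the CtBP corepressor to chromatin. Ikaros (Ikzf1) and Helios (Ikzf2) are also made in blood stem and progenitor cells. Aiolos (Ikzf3) acts mainly in maturing B and T cells, Eos (Ikzf4) in regulatory T cells, and Pegasus (Ikzf5) is the most divergent and most widely made member.

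In the mm9 genome, Ikzf1 lies on the plus strand at chr11:11585927-11672929 (87.0 kb), and the other members lie on the minus strand. Ikzf2 spans chr1:69577783-69732534 (154.8 kb), Ikzf3 chr11:98326006-98407345 (81.3 kb), Ikzf4 chr10:128067898-128083049 (15.2 kb) and Ikzf5 chr7:138532162-138553992 (21.8 kb). Reads in exons and introns were counted together. Ikzf2 lies wholly inside LOC108167347, a very long entry on the same strand, so its reads could also belong to that entry. The end of Ikzf5 overlaps the opposite-strand gene Pstk by 4121 bases, and the strand setting of the counting was not given in the sources used here.

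Over all 23 libraries the table held 1488 counts for Ikzf1, 2437 for Ikzf2 and 593 for Ikzf5, each seen in every library. Ikzf4 had 100 counts in 14 libraries and Ikzf3 had 4 counts in 3 libraries. The total per library ran from 7805102 to 24406998 counts, but 190 ribosomal and multi-locus entries took 71.1% to 81.1% of it in undifferentiated cells, 94.9% to 98% in mesoderm and 94.2% to 96.4% in HPCs. Between 311313 and 1040408 counts were left for all other genes in a mesoderm or HPC library. Levels are given as CPM, the count of a gene scaled to the library's total of assigned counts with TMM factors, so they are low in absolute terms. By pluripotency, mesoderm and progenitor markers the stages matched their labels. Mesoderm markers summed to 26.2 to 107 CPM in mesoderm, 0.324 to 0.540 CPM in mESCs and 2.76 to 19.9 CPM in HPCs. Endothelial markers did not separate mesoderm (1.41 to 91.7 CPM) from HPCs (11.4 to 75.1 CPM). The summed level of 4 pluripotency genes was 19 to 23 CPM in mESCs. In HPCs 6 hematopoietic progenitor genes, Runx1 among them, summed to 77.9 to 259 CPM. The 6 leukocyte genes summed to 0.0986 to 1.14 CPM in HPCs, with Elane and Cd48 at 0 in all 12 libraries. At the earlier stages the leukocyte sum was 0 to 0.407 CPM.

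Open chromatin in wild-type cells and CTCF binding in 416B cells, a mouse myeloid progenitor line, show which stretches of these loci were accessible. ATAC-seq reads, which mark accessible DNA, had been merged over the libraries of a stage before peaks were called, so the peaks carry no replicate error. The mesoderm list rested on 4 libraries of 2 experiments and the HPC list on 2 libraries of 1 experiment. Peak numbers of the stages are thus not on an equal footing. A site listed at 1 stage alone need not be closed at the other. The cells used for ATAC-seq carried a Runx1-Venus reporter and an mCherry enhancer transgene. Within each gene and 10 kb on either side, mesoderm and HPC peaks numbered 4 and 2 at Ikzf1, 7 and 3 at Ikzf2, 4 and 1 at Ikzf3, 5 and 2 at Ikzf4, and 1 and 2 at Ikzf5. The whole lists held 76766 peaks in mesoderm and 29037 in HPCs. CTCF peaks numbered 1 at Ikzf1, 1 at Ikzf2, 7 at Ikzf3, 2 at Ikzf4 and 0 at Ikzf5. Ikzf3 thus had more CTCF peaks than the other members combined, but 6 of its 7 lay outside the gene. Per 100 kb of the stretch searched it had 6.91, beside 5.69 at Ikzf4. Within 500 bases of the listed start site, Ikzf5 had peaks at both stages, Ikzf1 had 1 in mesoderm alone (78 bases wide, in the annotated UTR), and the other members had none.

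The 3 intronic Ikzf1 sites are shown because they are the sites seen in HPCs and the widest seen in mesoderm alone. They are given 5′ to 3′ on the strand of the gene, with motif matches on either strand in capitals. The motif searched for GATA factors was AGATAA and that for ETS factors was AGGAAG. The motif searched for Ikaros factors was TGGGAA and that for RUNX factors was TGTGGT. The first, chr11:11629401-11629507 on the plus strand, is the HPC peak that overlaps a mesoderm peak and lies 43.5 kb into the gene.
Ikzf1 intronic site, both stages: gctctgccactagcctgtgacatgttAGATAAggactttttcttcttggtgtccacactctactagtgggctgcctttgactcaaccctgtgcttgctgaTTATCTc
The second, chr11:11635219-11635408 on the plus strand, 49.4 kb into the gene, was seen in mesoderm alone.
Ikzf1 intronic site, mesoderm: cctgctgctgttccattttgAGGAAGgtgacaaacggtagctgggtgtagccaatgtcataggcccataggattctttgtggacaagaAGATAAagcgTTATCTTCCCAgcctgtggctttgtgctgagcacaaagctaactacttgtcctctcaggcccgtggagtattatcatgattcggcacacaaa
The third, chr11:11663512-11663674 on the plus strand, 77.7 kb into the gene, was seen in HPCs alone.
Ikzf1 intronic site, HPC: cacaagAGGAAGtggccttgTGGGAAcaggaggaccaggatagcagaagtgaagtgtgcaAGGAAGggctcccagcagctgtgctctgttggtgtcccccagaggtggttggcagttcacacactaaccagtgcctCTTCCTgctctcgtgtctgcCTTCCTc
The first holds 2 GATA matches. The mesoderm site holds 1 ETS, 2 GATA and 1 Ikaros match, the last GATA match overlapping the Ikaros match. The HPC site holds 4 ETS matches and 1 Ikaros match.

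Ikzf2 had 3 mesoderm sites that were also open in HPCs. The sites shown are those that lie farther from the listed start, and the remaining one, chr1:69733769-69733935, 1.3 kb upstream of the start and with 1 ETS match, is not shown. The first, chr1:69735690-69735861 on the minus strand, lies 3.2 kb upstream of the listed start and also overlapped a CTCF peak of 416B cells. None of the searched motifs occurs in its letters, although the window of 200 bases around its middle, counted below, held TGTGGT.
Ikzf2 upstream site, both stages: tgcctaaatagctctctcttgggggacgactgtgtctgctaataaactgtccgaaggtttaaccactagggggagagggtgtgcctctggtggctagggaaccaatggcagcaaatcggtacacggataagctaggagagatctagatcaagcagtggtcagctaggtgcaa
The second, chr1:69606398-69606500 on the minus strand, lies in an intron 126.1 kb into the gene and has no match to the GATA, ETS, Ikaros or RUNX letters.
Ikzf2 intronic site, both stages: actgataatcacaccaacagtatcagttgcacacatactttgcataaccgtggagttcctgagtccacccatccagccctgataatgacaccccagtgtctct
In windows of 200 bases around the middle of each peak, AGGAAG occurred in 30.6% of all mesoderm peaks and 39.7% of all HPC peaks, AGATAA in 16.2% and 11.2%, TGGGAA in 19.1% and 15.9%, and TGTGGT in 14.4% and 19.3%. Of the 21 mesoderm peaks at the members, 8 held AGGAAG, 2 AGATAA, 4 TGGGAA and 2 TGTGGT, and both with AGATAA were at Ikzf1.

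**Figure D1:**
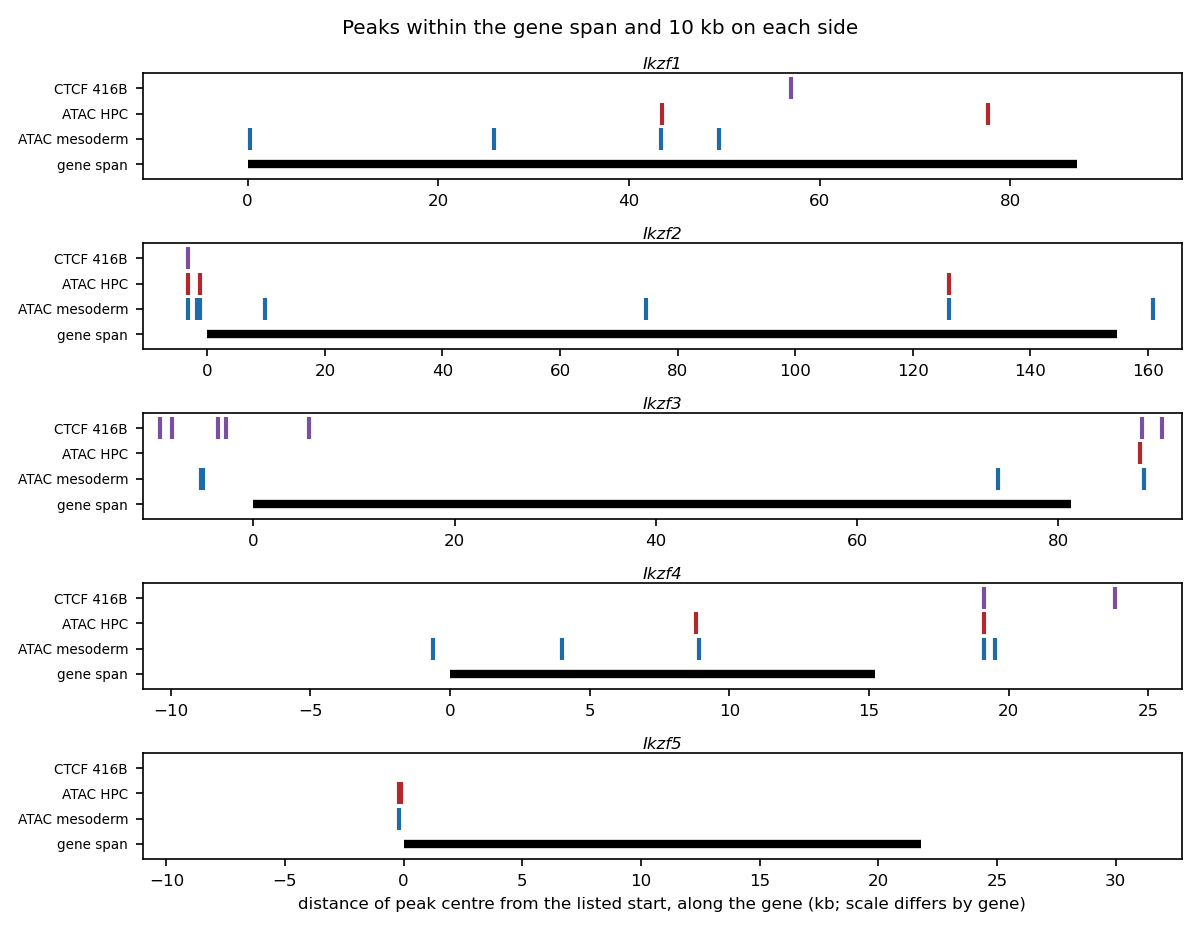
Peaks of wild-type Flk1+ mesoderm and CD41+ HPC ATAC-seq and of CTCF ChIP-seq in 416B cells at the 5 genes, by distance in kb from the listed start site. Ikzf2 has 7 mesoderm and 3 HPC peaks, and Ikzf3 has 7 CTCF peaks.

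Which family members are transcribed as mESCs become mesoderm and then HPCs was asked first, in wild-type cells. Ikzf1 and Ikzf2 rose at both steps, and neither Ikzf4 nor Ikzf5 passed the test at either. Ikzf1 was at 0.25 and 0.18 CPM in the 2 undifferentiated libraries. In mesoderm it was at 0.46 (B9.3), 2.06 (C6.1) and 3.31 CPM (C8.1). In HPC libraries B9.3, B9.3-2, C6.1 and C8.1 it was at 7.47, 11.8, 11.2 and 15.2 CPM. The stages did not overlap, and the mesoderm libraries spread over a wider relative range than the HPC libraries. In edgeR's quasi-likelihood test, adjusted over all genes by Benjamini and Hochberg's method, Ikzf1 rose by 3.15 ± 0.62 (log2, SE) from mESCs to mesoderm (adjusted p = 0.0037). It rose by a further 2.56 ± 0.48 to HPCs (adjusted p = 0.0023), a 5.91-fold difference with a 95% interval of 2.84 to 12.3. Without the second undifferentiated library the first step had an adjusted p of 0.053 (log2 2.94). With these technical replicates, which are 1 culture, and the libraries of each clone summed, it had a log2 value of 3.12 and an adjusted p of 0.037, and that of Ikzf2 had 1.92 and 0.016.

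Ikzf2, the Helios gene, was at 1.34 and 0.99 CPM in undifferentiated libraries. In mesoderm it was at 4.42 (B9.3), 3.40 (C6.1) and 5.77 CPM (C8.1). In HPC libraries B9.3, B9.3-2, C6.1 and C8.1 it was at 12.4, 11, 13.6 and 16.6 CPM. Every library of a later stage was above every library of an earlier one. Ikzf2 rose by 1.97 ± 0.29 to mesoderm (log2, edgeR adjusted p = 8.5e-04) and by 1.55 ± 0.24 to HPCs (adjusted p = 7.7e-04), or 2.92-fold with a 95% interval of 2.02 to 4.22. A gene was called where its adjusted p was under 0.05 and its log2 change over 1. Of 12899 genes tested, 10.8% were called higher and 13.6% lower in mesoderm than in mESCs, and 10.8% higher and 12.5% lower in HPCs than in mesoderm, against 2 of the 4 members tested called higher and 0 lower at each step. The study's methods name ribosomal RNA depletion for undifferentiated cells and 416B cells only, so stage and library preparation cannot be told apart in comparisons with mESCs.

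Ikzf5, the widely made Pegasus gene, did not pass the test at either step. It was at 0.79 and 0.66 CPM in mESCs, at 0.61 to 1.44 CPM in wild-type mesoderm and at 1.12 to 3.35 CPM in wild-type HPCs. Its log2 differences were 0.70 ± 0.47 at the first step (95% interval -0.32 to 1.71, edgeR adjusted p = 0.29) and 0.67 ± 0.43 at the second (-0.26 to 1.61, adjusted p = 0.28). Pstk, the neighbour that shares 4121 bases with it, was lower in every group, at 0 to 0.687 CPM over the 23 libraries.

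Ikzf4, the Eos gene, had counts in both undifferentiated libraries (30 and 17) and in all 9 mesoderm libraries (2 to 10), but in only 3 of the 12 HPC libraries. Those were wild-type B9.3 with 4 counts, P1-CTCF-KO E7.2 with 1 and P2-CTCF-KO D2.1 with 4. In an HPC library 3 counts, taken as the detection floor, correspond to 0.209 to 0.608 CPM, so most of the HPC zeros lie under a floor as high as the mesoderm levels of 0.116 to 0.656 CPM. In wild-type cells the log2 difference of Ikzf4 was 0.23 ± 0.79 to mesoderm (edgeR adjusted p = 0.86) and -1.0 ± 1.07 to HPCs (adjusted p = 0.53). Without HPC library B9.3 the latter was -6.14 with an adjusted p of 0.049, a fitted value against HPC libraries that were all at 0. Ikzf4 did not reach the count minimum of the main edgeR fits of knockout libraries. In the edgeR fit of all 23 libraries it was called lower in P2-CTCF-KO HPCs than in P2-CTCF-KO mesoderm (log2 -2.55 ± 0.94, adjusted p = 0.043), which DESeq2 (adjusted p = 0.075) and edgeR without the filter (adjusted p = 0.058) did not call.

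Ikzf3, the Aiolos gene, had 2 counts in 1 undifferentiated library, 1 in a wild-type and 1 in a P1-CTCF-KO mesoderm library, and 0 in the P2-CTCF-KO mesoderm libraries and all 12 HPC libraries. It was at or under the floor of 3 counts everywhere, so no fold is given.

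**Figure D2:**
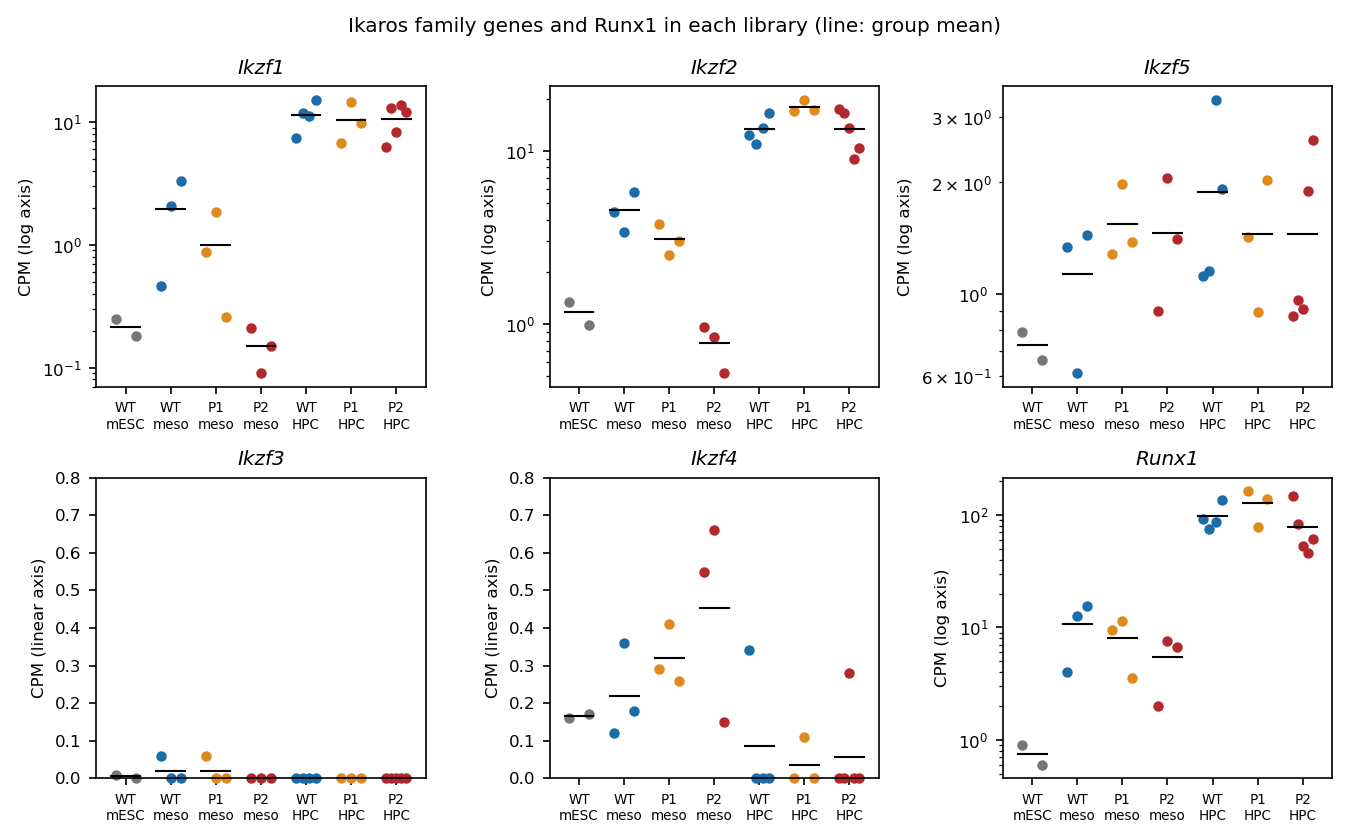
Level of the 5 family genes and Runx1 in each of the 23 libraries, in TMM-scaled CPM, by stage and genotype, on log axes for Ikzf1, Ikzf2, Ikzf5 and Runx1 and linear axes for Ikzf3 and Ikzf4. Ikzf1 and Ikzf2 are lowest among mesoderm libraries in P2-CTCF-KO (0.09 to 0.21 and 0.52 to 0.96 CPM) and reach 6.2 to 15.2 and 8.98 to 19.7 CPM in HPCs.

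Levels were also taken per length of gene span, which makes genes of unequal size comparable where introns are counted. By mean, Ikzf5 led in undifferentiated cells and wild-type mesoderm, and Ikzf1 in wild-type HPCs. In wild-type HPCs the levels were 131 ± 36.6 CPM per Mb for Ikzf1, 86.5 ± 15.4 for Ikzf2 and 86.3 ± 47.9 for Ikzf5 (SD, n = 4). In undifferentiated cells Ikzf5 led with 33.2 ± 4.35, before Ikzf4 (10.9 ± 0.139), Ikzf2 (7.52 ± 1.58) and Ikzf1 (2.43 ± 0.561 CPM per Mb, SD of 2 technical replicates of 1 culture). As a share of the family's summed level per length, the median library had 61.3% from Ikzf5 in mESCs, 43.1% in wild-type mesoderm and 22.5% in wild-type HPCs. The corresponding medians for Ikzf1 were 4.45%, 24.3% and 41.6%. In wild-type HPC libraries the shares of Ikzf5 (20.4% to 41.4%) and Ikzf1 (34.9% to 52.2%) overlapped. In P1-CTCF-KO HPCs the median of Ikzf2 (37.1%) was above that of Ikzf1 (35.7%). In P2-CTCF-KO mesoderm the medians were 65.5% for Ikzf5, 2.15% for Ikzf1 and 4.23% for Ikzf2.

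**Figure D3:**
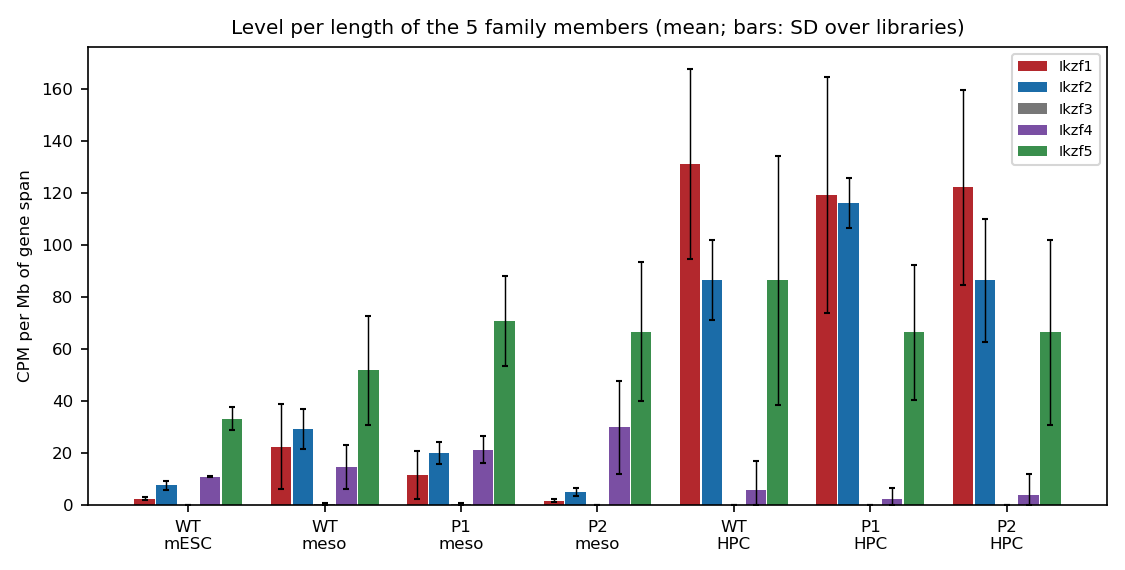
Mean level per Mb of gene span (CPM per Mb, bars of 1 SD) of the 5 genes in the 7 groups. Ikzf1 has the highest mean in wild-type HPCs (131) and Ikzf5 the highest in undifferentiated mESCs (33.2).

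Whether loss of a Runx1 CTCF site altered the family in mesoderm was asked next. Ikzf2 fell in P2-CTCF-KO mesoderm and was the 1 of 3 tested members to pass the test there. P2-CTCF-KO clones D10.1, D2.1 and E9.1 held 0.96, 0.84 and 0.52 CPM of Ikzf2 (14, 9 and 7 counts), against 3.40 to 5.77 CPM in wild-type and 2.51 to 3.79 CPM in P1-CTCF-KO clones. All 3 P2-CTCF-KO libraries lay below every other mesoderm library. They also lay below both undifferentiated libraries, but D10.1 (0.964 CPM, 14 counts) only just below the lower of those (0.990 CPM). That gap is small beside counting error, and library preparation differs there. The share of all genes that separate in these ways was not computed. The group means were 0.775 ± 0.231, 4.53 ± 1.19 and 3.11 ± 0.646 CPM for P2-CTCF-KO, wild-type and P1-CTCF-KO (SD, n = 3). Against wild-type, Ikzf2 fell by 2.52 ± 0.31 on the log2 scale (edgeR adjusted p = 0.026), or 5.75-fold with a 95% interval of 3.58 to 9.22. Of 8778 genes tested, 3 were called lower (0.0342%) and 0% higher. The others were Cbfa2t3, a corepressor of blood progenitors (log2 -2.78 ± 0.31, adjusted p = 0.022), and Prkar2b, a regulatory subunit of protein kinase A (log2 -2.30 ± 0.31, adjusted p = 0.037). DESeq2 called 169 genes, Ikzf2 among them (log2 -2.56, adjusted p = 5.8e-06).

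The size of the Ikzf2 difference was steady and its call was not. Leaving out each of the 6 libraries in turn gave log2 values from -2.74 to -2.29. The edgeR adjusted p was 0.17 without wild-type C8.1, 0.11 without P2-CTCF-KO D10.1, 0.14 without D2.1 and 0.084 without E9.1. With DESeq2 the study had already reported both Ikzf1 and Ikzf2 as significantly lower in P2-CTCF-KO than in wild-type mesoderm, in these libraries. The choice of these genes is therefore not independent of this result.

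Ikzf1 had 3, 1 and 2 counts in P2-CTCF-KO mesoderm clones D10.1, D2.1 and E9.1 (0.21, 0.09 and 0.15 CPM), against 8, 17 and 55 counts in the wild-type clones. It was at 0.88, 1.85 and 0.26 CPM in P1-CTCF-KO clones E7.1, E7.2 and E9.1. The P2-CTCF-KO libraries lay below all other mesoderm libraries, and the gap to P1-CTCF-KO E9.1 was small. Ikzf1 did not pass the test against wild-type (log2 -3.55 ± 0.92, 95% interval -5.59 to -1.51, unadjusted p = 0.0028, edgeR adjusted p = 0.14). It passed with DESeq2 (adjusted p = 0.013) and with edgeR without the filter on low counts (adjusted p = 0.0021). Pooled over clones, 6 counts stood against 80, a ratio 12-fold lower with an exact interval of 5.28 to 33.7 that covers counting error only.

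Runx1, the gene whose neighbouring site was removed, had mean levels of 10.7 ± 5.98 CPM in wild-type, 8.07 ± 4.03 in P1-CTCF-KO and 5.44 ± 3.01 in P2-CTCF-KO mesoderm (SD, n = 3), and its difference of -0.96 ± 0.58 did not pass the test (log2, edgeR adjusted p = 0.45). The deletions removed CTCF sites and not the gene, so its level does not check the labels. Ikzf5 differed by 0.30 ± 0.39 (95% interval -0.56 to 1.16, adjusted p = 0.75), and its groups overlapped. Ikzf4 had 17 counts in P2-CTCF-KO, 19 in P1-CTCF-KO and 8 in wild-type mesoderm, at 0.148 to 0.656, 0.263 to 0.412 and 0.116 to 0.364 CPM, and these ranges overlapped.

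In P1-CTCF-KO mesoderm no member passed the test against wild-type. The log2 differences were -0.88 ± 0.67 for Ikzf1, -0.56 ± 0.26 for Ikzf2 (95% interval -1.13 to 0.01, unadjusted p = 0.053) and 0.40 ± 0.37 for Ikzf5, each with an edgeR adjusted p of 1. No gene was called (0% of 8778), 166 had an unadjusted p under 0.05, and DESeq2 called 0. Between the knockouts, Ikzf2 was lower in P2-CTCF-KO by a log2 value of -1.96 ± 0.31 (95% interval -2.65 to -1.28, unadjusted p = 6.2e-05), and Ikzf1 by -2.67 ± 0.95, with edgeR adjusted p of 0.18 and 0.35. Ikzf5 differed by -0.10 ± 0.37. Here edgeR called 0% of genes, although 987 had an unadjusted p under 0.05 and DESeq2 called 93, Ikzf2 among them (adjusted p = 0.0017). The edgeR fit of all 23 libraries also called Ikzf2 (adjusted p = 0.018), and without the filter both Ikzf1 (0.04) and Ikzf2 (6.4e-04) were called. These comparisons share libraries with the P2-CTCF-KO against wild-type comparison.

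Other genes moved beside Ikzf1 and Ikzf2 in P2-CTCF-KO mesoderm. The summed level of 6 hematopoietic progenitor markers was 3.58 to 10.4 CPM, against 18.2 to 26.0 in wild-type and 18.1 to 25.2 in P1-CTCF-KO. All 4 of those tested had log2 values below 0. Runx1 itself is in this list. It made up 2.00 to 7.59 CPM of the P2-CTCF-KO sums, against 4.01 to 15.5 in wild-type and 3.55 to 11.3 in P1-CTCF-KO. The sum of 8 endothelial markers was 1.41 to 3.03 CPM, against 5.34 to 91.7 and 8.27 to 57.0, with all 6 tested below 0. By contrast, 6 early mesoderm markers summed to 71.3 to 107 CPM, against 26.2 to 48.7 and 45 to 50, and 4 pluripotency markers to 0.814 to 3.72 CPM, against 0.174 to 0.781 in wild-type and 0.584 to 1.85 in P1-CTCF-KO. With edgeR no tested marker of these lists was called, and no pluripotency marker passed the filter in this fit. With DESeq2, the study reported T and Eomes, both early mesoderm markers, as higher in P2-CTCF-KO than in wild-type mesoderm. It also reported several hematopoietic markers as lower. DESeq2 results for these marker lists are not given here, so the lack of a call holds for edgeR alone. Leukocyte and lymphoid markers were at 0 in the P2-CTCF-KO mesoderm libraries, and near 0 in the others. Leukocyte sums were 0 to 0.407 CPM in wild-type and 0 to 0.175 CPM in P1-CTCF-KO. Lymphoid sums were 0 to 0.116 and 0.0584 to 0.0823 CPM. No genotype difference is read from these low values. The part of these cell type markers in the Ikzf1 and Ikzf2 results was not tested, and in bulk RNA fewer cells of a type and less RNA per cell cannot be told apart. Wild-type B9.3 had the highest endothelial (91.7 CPM) and progenitor (26.0 CPM) sums of its group, and the lowest Ikzf1 (0.46 CPM) and Runx1 (4.01 CPM). Its Ikzf2 (4.42 CPM) lay between those of the other wild-type clones. These are values of a single library.

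**Figure D4:**
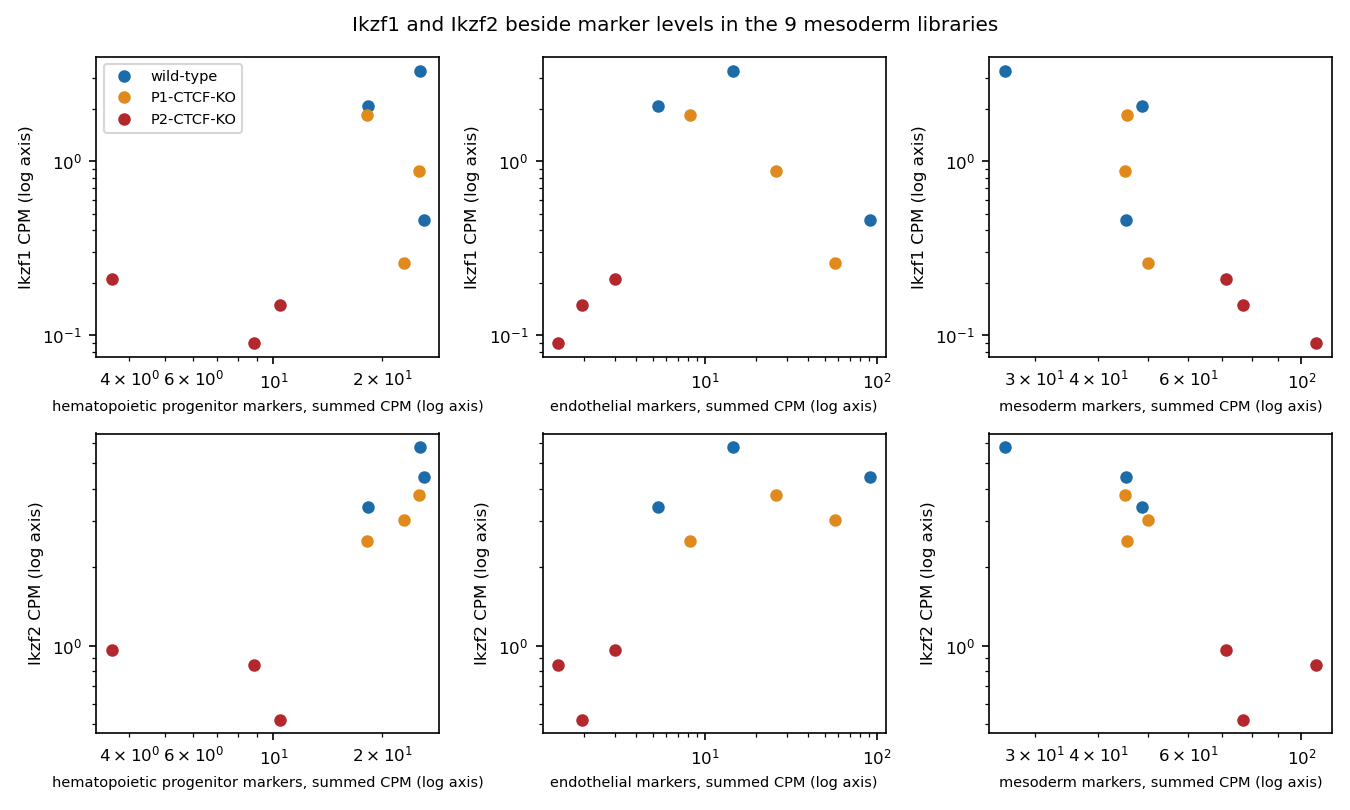
Ikzf1 and Ikzf2 level against the summed level of hematopoietic progenitor, endothelial and mesoderm markers in the 9 mesoderm libraries, all in CPM on log axes. The 3 P2-CTCF-KO libraries lie at the lowest progenitor sums (3.58 to 10.4) and the highest mesoderm sums (71.3 to 107). The progenitor sum includes Runx1.

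In HPCs the question was whether the family still differed by genotype once blood progenitors had formed, and no member passed the test. Ikzf1 was at 6.2, 13.0, 8.23, 13.7 and 12.1 CPM in P2-CTCF-KO libraries D10.1, D10.1-2, D2.1, D2.1-2 and E9.1, and at 6.69, 14.5 and 9.88 CPM in P1-CTCF-KO libraries E7.1, E7.2 and E9.1. Both ranges overlapped the 7.47 to 15.2 CPM of wild-type. The log2 difference from wild-type was -0.09 ± 0.28 for P2-CTCF-KO (95% interval -0.70 to 0.51) and -0.11 ± 0.32 for P1-CTCF-KO (-0.81 to 0.59). Both intervals lie within the log2 threshold of 1.

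Ikzf2 was at 17.3, 16.4, 13.6, 8.98 and 10.4 CPM in the same P2-CTCF-KO libraries, spanning the wild-type range of 11 to 16.6 CPM. Its log2 difference was 0.02 ± 0.21 (95% interval -0.44 to 0.48). The P1-CTCF-KO libraries, at 17.0, 19.7 and 17.2 CPM, all lay above the wild-type libraries, the lowest of them by a small margin, but the log2 difference of 0.45 ± 0.24 (-0.07 to 0.97) did not pass the test (edgeR adjusted p = 0.91). P2-CTCF-KO and P1-CTCF-KO differed by -0.43 ± 0.23 for Ikzf2 (-0.93 to 0.06, adjusted p = 0.53) and 0.02 ± 0.31 for Ikzf1. Ikzf5 differed from wild-type by -0.38 ± 0.43 in P2-CTCF-KO and -0.35 ± 0.51 in P1-CTCF-KO, and by -0.03 ± 0.49 between the knockouts. Of 7422 genes tested with edgeR, 0% were called in each of the 3 HPC comparisons, while 145 (P2-CTCF-KO against wild-type), 260 (P1-CTCF-KO against wild-type) and 650 (between the knockouts) had an unadjusted p under 0.05, and DESeq2 called 0 in each.

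From mesoderm to HPCs, Ikzf1 and Ikzf2 rose in both knockouts as in wild-type cells. In P1-CTCF-KO cells they rose by 3.30 ± 0.57 and 2.52 ± 0.27 (log2, edgeR adjusted p = 2.5e-04 and 3.9e-06), where 16.6% of 9170 genes were called higher and 16.1% lower. In P2-CTCF-KO cells they rose by 5.99 ± 0.73 and 4.07 ± 0.30 (adjusted p = 8.1e-06 and 5.2e-08), where 16.5% were called higher and 11.7% lower. Pooled over libraries, Ikzf1 went from 6 to 558 counts, a ratio of 66.0 with an exact counting interval of 30.1 to 181, and Ikzf2 from 30 to 726 counts, a ratio of 17.2 (11.9 to 25.6). Ikzf5 differed by -0.13 ± 0.50 in P1-CTCF-KO and -0.03 ± 0.44 in P2-CTCF-KO cells.

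Whether the P2-CTCF-KO effect itself differed between stages was tested as an interaction. For Ikzf2 the log2 effect in the fits of each stage was -2.52 in mesoderm and 0.02 in HPCs. The fitted difference, HPCs minus mesoderm, was 2.54 ± 0.38 (log2, edgeR adjusted p = 0.0079), so the fall seen in mesoderm was not seen in HPCs. Ikzf2 and Cbfa2t3 were the 2 genes called (0.0218% of 9170). DESeq2 called 36 genes. Leaving out each of 15 libraries in turn gave 2.28 to 2.72, with an adjusted p of 0.072 without wild-type mesoderm C8.1, 0.06 without P2-CTCF-KO mesoderm D2.1 and 0.078 without P2-CTCF-KO mesoderm E9.1. For Ikzf1 the difference was 3.46 ± 0.91 and did not pass (unadjusted p = 0.0012, edgeR adjusted p = 0.29), whereas DESeq2 gave an adjusted p of 0.047. For Ikzf5 it was -0.68 ± 0.64. The stage difference of the P1-CTCF-KO effect passed the test in no member, with 0.77 ± 0.74 for Ikzf1, 1.0 ± 0.36 for Ikzf2 (unadjusted p = 0.012) and -0.79 ± 0.68 for Ikzf5, each with an adjusted p of 1. In that test 0% of genes were called, 306 had an unadjusted p under 0.05, and DESeq2 called 0.

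**Figure D5:**
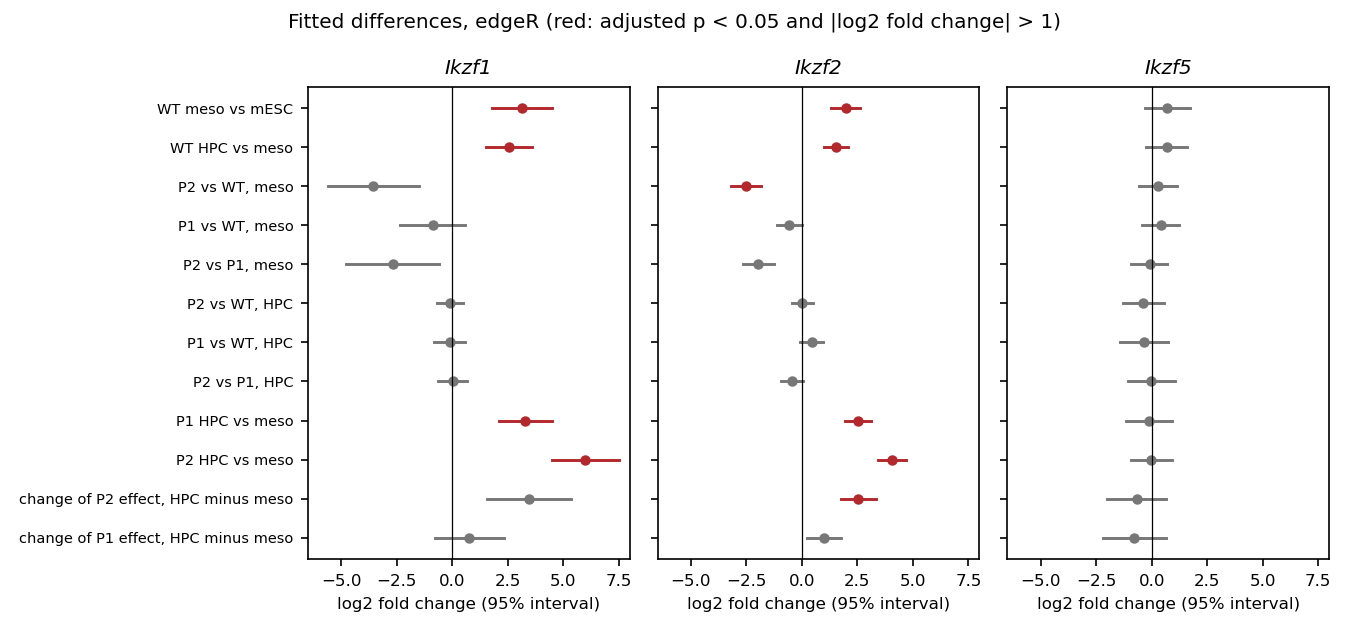
Log2 fold change with its 95% interval for Ikzf1, Ikzf2 and Ikzf5 in the 12 comparisons, called results in red. Ikzf1 and Ikzf2 are called in every step to a later stage, Ikzf2 also in P2-CTCF-KO against wild-type mesoderm (-2.52) and in the change of that effect (2.54), and Ikzf5 in none.

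Ranked by mean level, the 3 HPC groups held the top places for Ikzf1 (11.4 wild-type, 10.6 P2-CTCF-KO, 10.4 CPM P1-CTCF-KO) and overlapped each other. They were followed, without overlap, by wild-type and P1-CTCF-KO mesoderm (1.95 and 0.997 CPM, overlapping), then by mESCs and P2-CTCF-KO mesoderm (0.211 and 0.149 CPM, overlapping). For Ikzf2 the order was P1-CTCF-KO HPCs (18.0 CPM), wild-type and P2-CTCF-KO HPCs (both 13.4), wild-type mesoderm (4.53), P1-CTCF-KO mesoderm (3.11), mESCs (1.16) and P2-CTCF-KO mesoderm (0.775). Wild-type and P2-CTCF-KO HPCs overlapped, as did wild-type and P1-CTCF-KO mesoderm, and the other neighbours in that order did not. Although not neighbours, P1-CTCF-KO HPCs (17.0 to 19.7 CPM) overlapped P2-CTCF-KO HPCs (8.98 to 17.3 CPM). Some gaps were small, such as 17.0 against 16.6 CPM between P1-CTCF-KO and wild-type HPCs. Between mESCs and P2-CTCF-KO mesoderm the gap was 0.990 against 0.964 CPM. The share of all genes with such gaps was not computed. For Ikzf4 and Ikzf5 every pair of neighbours overlapped.

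Genes whose levels most resembled each member were ranked by Pearson r of log2(CPM + 1) over the 23 libraries, among about 12459 genes. These libraries fall into 3 stages, which they share, so a high r mostly says that a gene follows the stages. For Ikzf1 the closest were Nadk2, Zdhhc14 and Crlf3 (r = 0.96), then Dlg1 and St3gal5 (0.95). For Ikzf2 they were Ptpre (0.98), Trappc9, Fam172a, Prkar2b and Cbfa2t3 (0.97), the last of which were the genes called with Ikzf2 in P2-CTCF-KO mesoderm, in the same libraries. Ikzf1 and Ikzf2 had r = 0.93 with each other, and each had r = 0.92 with Runx1. Between Ikzf1 and Ikzf2, r was 0.70 within the 9 mesoderm libraries and -0.17 within the 12 HPC libraries. With Runx1, Ikzf1 had r = 0.78 in mesoderm and -0.43 in HPCs, and Ikzf2 had 0.40 and 0.71. The values within a stage pool the genotypes, and the P2-CTCF-KO mesoderm libraries were the lowest of that stage for both Ikzf1 and Ikzf2. Differences between genotypes therefore enter these values, and r within a genotype was not computed. For Ikzf5 the closest reached r = 0.70 (3110056K07Rik and Naa15).

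The listed genes for the corepressor partners of Ikaros factors were counted throughout. All 18 passed the filter in every fit. From mESCs to mesoderm 2 rose, the NuRD helicase gene Chd3 (2.44 ± 0.44, adjusted p = 0.0024) and the NuRD gene Gatad2b (1.27 ± 0.24, 0.003), and Ctbp2, a CtBP corepressor, fell by 1.52 ± 0.34 (log2, edgeR adjusted p = 0.0071). From mesoderm to wild-type HPCs 2 rose and 3 fell, among them Mta3 (1.37 ± 0.27) and Mbd2 (1.10 ± 0.29) upward and Chd3 (-2.24 ± 0.41) and Rbbp7 (-1.0 ± 0.22) downward. The medians of the list were 0.193 and -0.279, beside -0.178 and -0.0111 for all genes, of which 10.8% were called higher and 13.6% lower at the first step and 10.8% and 12.5% at the second. In P1-CTCF-KO cells 2 rose and 3 fell between these stages, and in P2-CTCF-KO cells 1 rose (Mbd2, 2.01 ± 0.36) and 1 fell (Chd3, -1.93 ± 0.51). Of all genes, 16.6% were called higher and 16.1% lower in P1-CTCF-KO cells, and 16.5% and 11.7% in P2-CTCF-KO cells. In the genotype comparisons within a stage, 0 of 18 were called. Of all genes, 0.0342% were called lower in P2-CTCF-KO against wild-type mesoderm and 0% in the other comparisons. The count of 0 therefore says little about this list. List medians lay between -0.0710 and 0.115.

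Of 19 lymphoid genes, the class that Ikaros factors are best known to serve, 4 passed the filter in the wild-type fit, 3 in the mesoderm fit and 1 in the HPC fit. The recombinase gene Rag2 and Il7r, Igll1 and Cd8a had no counts in any library. Tcf7 and Bcl11b, transcription factors of the T cell lineage, fell from mesoderm to HPCs in wild-type cells (log2 -3.68 ± 0.59 and -3.44 ± 0.98, edgeR adjusted p = 8.9e-04 and 0.022), and in both knockouts as well. Over all genes 12.5% were called lower at that step in wild-type, 16.1% in P1-CTCF-KO and 11.7% in P2-CTCF-KO cells. No lymphoid gene was called higher in any comparison.

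Of 20 blood progenitor regulators, 19 passed the filter in wild-type cells. From mESCs to mesoderm 15 rose and 0 fell, with Cbfa2t3 (4.93 ± 0.30), Tal1 (4.48 ± 0.29), Zfpm1 (3.8 ± 0.34) and Lmo2 (4.50 ± 0.47) leading by adjusted p, and from mesoderm to HPCs 13 rose and 1 fell, with the erythroid factor Gata1 at 6.14 ± 0.49 and Gfi1b, a repressor, at 5.0 ± 0.60. The list medians were 3.8 and 2.29, and 10.8% of all genes were called higher at each step. In P2-CTCF-KO against wild-type mesoderm, 13 were tested with edgeR and Cbfa2t3 alone was called, where 0.0342% of all genes were called lower. The list median there was -1.89, beside 0.0087 for all genes. In P1-CTCF-KO against wild-type mesoderm the median was -0.237 and 0 were called, as were 0% of all genes. In HPCs the medians were -0.101 for P2-CTCF-KO and 0.372 for P1-CTCF-KO against wild-type, with 0 of 16 called in either. Over all genes 0% were called in these HPC comparisons as well. The list was chosen with results of these libraries known, and its median is a description.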

How the data were processed

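Poly(A)-minus RNA-seq counts per gene were deposited by the authors as 1 table of 23 libraries, raw and not normalized, made with STAR on mm9 and featureCounts over exons and introns. ATAC-seq and CTCF ChIP-seq peaks were called by the authors with MACS2 after Bowtie2 alignment, and of the deposited peak lists only the positions were used. The deposited fold enrichment, score, signal and −log10 p or q columns were not used. 0 count columns were left out.

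Counts were scaled by TMM and tested with edgeR 4.0.16 (quasi-likelihood test, filterByExpr with a minimum count of 10, R 4.3.3), with Benjamini-Hochberg adjustment over all genes of a fit. Wild-type libraries entered 1 fit, mesoderm libraries another, HPC libraries another, and the mesoderm and HPC libraries together a further one for the stage differences of the knockouts. A call needed an adjusted p under 0.05 and a log2 change over 1 in size. DESeq2 1.42.0, other scaling, no filter, all libraries in 1 fit and leaving out each library were alternatives. The code was tested on simulated data. Peaks were assigned to a gene within 10 kb of it and annotated with GENCODE M1, and sequences were read from the mm9 genome. Python 3.11.15 with SciPy 1.17.1 gave exact intervals of pooled counts.

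The family genes were named in every comparison whose fit tested them, with Runx1 as a reference, the 5 genes most like each tested member, and up to 4 called genes of each list by adjusted p. Cbfa2t3 and Prkar2b, called beside Ikzf2, were also named after their values were seen. The members and lists were chosen with earlier results of these data known. Clones were shared by both stages, being the same cell lines. The correlation of a clone's deviations from its group means between mesoderm and HPCs ran from -0.06 to 0.17 over 9 clones. Further libraries of 1 clone were counted as samples, so p-values partly measure spread within a clone. No 2 libraries agreed within sampling noise (lowest chi-square per gene 5.13).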

Additional observations from a re-analysis of the deposited data

Results flagged for a closer look

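Ikzf4 in wild-type HPCs was at 0.343 CPM in library B9.3 (4 counts) and at 0 in the other 3 libraries, and in P2-CTCF-KO HPCs it was at 0.279 CPM in library D2.1 (4 counts) and at 0 in the other 4. Dixon's criterion marks any single value above 0 beside zeros, so these 2 of 8 groups examined rest on 4 counts each, near the floor of 3, and the usual chance rate of 1 in 20 does not apply to them.

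The P2-CTCF-KO effect on Ikzf2 differed between CD41+ HPCs and Flk1+ mesoderm by 2.54 on the log2 scale in a test of the difference itself (edgeR adjusted p = 0.0079), with all 3 P2-CTCF-KO mesoderm libraries below the wild-type ones and overlapping ranges in HPCs.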

How the results depend on the processing

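No member result changed direction past the threshold under any alternative. In P2-CTCF-KO against wild-type mesoderm the number of members called was 1, and 2 with DESeq2 and without the filter on low counts. In P2-CTCF-KO against P1-CTCF-KO mesoderm it was 0, and 1 with DESeq2, 2 without the filter and 1 with all 23 libraries in 1 fit. For the stage difference of the P2-CTCF-KO effect it was 1, and 2 with DESeq2. Leaving out each library in turn gave 0 to 1 in the first and the last of these, 1 to 2 from mESCs to mesoderm, and 2 to 3 from wild-type mesoderm to HPCs, where Ikzf4 was called without HPC library B9.3. From P2-CTCF-KO mesoderm to HPCs 2 were called, and 3 with all 23 libraries in 1 fit, the third being Ikzf4. Of 282 log2 values under other settings 275 kept their side of the threshold and 7 passed it, and of 300 with a library left out 291 kept it, 8 lost it and 1 passed it. With the clone as a replicate block Ikzf2 rose by 4.01 to P2-CTCF-KO HPCs, its stage difference was 2.44 (adjusted p = 0.017), and the block changed no member call. Leaving the ribosomal and multi-locus entries out of the totals raised the mean of Ikzf1 in wild-type HPCs from 11.4 to 238 CPM. Counts of peaks moved by over 1.5 times in 34 of 46 settings of the flank or width. Leaving the 2 undifferentiated libraries out of the wild-type step from mesoderm to HPCs, an alternative chosen after seeing the data, called the same 2 members. Ikzf1 had 1 to 3 counts a library in P2-CTCF-KO mesoderm, where counting error is large.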
